A study of Mus musculus with 10 samples.

Results

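The 9 genes described here form the oxygen-sensing core of the hypoxia-inducible factor (HIF) system. They are the HIF alpha subunits HIF1A, EPAS1 and HIF3A, their partner ARNT, the prolyl hydroxylases EGLN1, EGLN2 and EGLN3, the asparaginyl hydroxylase HIF1AN, and VHL. They were chosen by symbol, with earlier results of these data known. All 9 are among the 16895 genes listed for each library, and all 9 passed the filter on low values, which left 13707 genes.

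HIF is a transcription factor made of an oxygen-regulated alpha subunit and ARNT, also called HIF1-beta. Where oxygen is plentiful, prolyl hydroxylases mark the alpha subunit, VHL recruits a ubiquitin ligase to the mark, and the subunit is degraded. HIF1AN, also called FIH, hydroxylates an asparagine in the alpha subunit and so weakens its contact with coactivators. Most of this control acts on protein, which RNA levels do not show, but EGLN3 and EGLN1 are themselves transcribed in response to HIF. EPAS1, which encodes HIF2-alpha, is known for high expression in vascular endothelium.

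RNA-seq was made from 10 meningioma-like mouse tumors. The tumors labelled NLS-2SA-YAP1 (n = 3) carried that form of YAP1, a coactivator restrained by the Hippo pathway and constitutively active in this form per the series title, and the tumors labelled YAP1-MAML2-v2 (n = 7) carried a fusion of YAP1 with the Notch coactivator MAML2. By region there were 3 extra axial libraries (NLS-2SA-YAP1 replicate 1 and YAP1-MAML2-v2 replicates 2 and 6), 1 intra ventricular library (YAP1-MAML2-v2 replicate 7) and 6 extra cranial libraries (NLS-2SA-YAP1 replicates 2 and 3 and YAP1-MAML2-v2 replicates 1, 3, 4 and 5). In every group DF1 cells, chicken fibroblasts, were transfected with an avian RCAS vector carrying the construct. They were placed in the subarachnoid space of Cdkn2a null mice at postnatal days 0 to 3, and these mice express tv-a, the receptor for the virus, under Nestin. The sources used here give neither the age at collection nor the sex, and normal tissue and tumors without a construct were not analysed here. YAP1-MAML2-v2 replicates 6 and 7 carry the same number in their deposited names, and the labels do not say whether they came from 1 animal. Nothing in the labels says that the other libraries came from separate animals, so p-values measure the spread between these libraries.

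Levels are given as CPM, the deposited values scaled to a common library total with TMM factors, and, between genes, as CPM per kilobase of exon. Deposited totals per library lay between 28001143 and 44544314. They are sums of values that do not behave as raw counts, so sequencing depth is unknown. YAP1 lay between 421 and 592 CPM where the label was NLS-2SA-YAP1 and between 122 and 174 CPM where it was YAP1-MAML2-v2. Of 8 meningeal and arachnoid markers, at most 2 were listed at 0 or 1 in any library, and their summed level was 16400 to 22600 CPM for NLS-2SA-YAP1, against 3980 to 16700 CPM for YAP1-MAML2-v2. The intra ventricular library stood apart in astrocyte markers, with a summed level of 2110 CPM against 46.2 to 178 CPM in the other 9. Skeletal muscle markers summed to 71 CPM in replicate 2 and 245 CPM in replicate 3 of NLS-2SA-YAP1, to 48.9 CPM in YAP1-MAML2-v2 replicate 3 and to at most 2.24 CPM elsewhere. In bulk tumors, fewer cells of a type and less RNA per cell cannot be told apart.

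HIF binds DNA at a short core, and ACGTG is one spelling of it. RefSeq promoters (GRCm38.p6, 250 bases before to 50 after a start site) were found for 8 of the 9 genes, and EPAS1 had no entry. ACGTG, read on both strands, occurred in promoters of 4 of them, HIF1A, EGLN1, EGLN2 and EGLN3, against 6447 of 32851 mouse promoters of the same length (19.6%). The 8 genes had 9 promoters, so the 4 are counted by gene and the background by promoter. Promoters of the 3 prolyl hydroxylases, 1 for each, are shown. EGLN1 and EGLN3 are known HIF targets whose levels are set beside those of other HIF targets, and EGLN2 is shown for comparison. The sequences are read 5′ to 3′ on the minus strand of each gene, with ACGTG or its reverse complement CACGT in capitals. A match is a description of letters and not a binding site.
EGLN1 (chr8:124949205-124949504): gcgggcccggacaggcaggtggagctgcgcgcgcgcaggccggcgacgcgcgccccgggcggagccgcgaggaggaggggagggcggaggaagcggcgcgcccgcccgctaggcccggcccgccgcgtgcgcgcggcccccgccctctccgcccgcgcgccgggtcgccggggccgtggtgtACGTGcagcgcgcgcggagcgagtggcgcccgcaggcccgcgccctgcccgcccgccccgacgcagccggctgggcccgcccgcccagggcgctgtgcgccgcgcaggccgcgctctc
EGLN2 (chr7:27166753-27167052): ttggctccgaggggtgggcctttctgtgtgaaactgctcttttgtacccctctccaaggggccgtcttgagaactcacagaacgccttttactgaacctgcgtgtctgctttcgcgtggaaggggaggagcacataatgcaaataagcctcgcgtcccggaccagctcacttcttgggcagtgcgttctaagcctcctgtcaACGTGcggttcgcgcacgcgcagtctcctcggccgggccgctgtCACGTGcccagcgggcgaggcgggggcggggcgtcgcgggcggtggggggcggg
EGLN3 (chr12:54203825-54204124): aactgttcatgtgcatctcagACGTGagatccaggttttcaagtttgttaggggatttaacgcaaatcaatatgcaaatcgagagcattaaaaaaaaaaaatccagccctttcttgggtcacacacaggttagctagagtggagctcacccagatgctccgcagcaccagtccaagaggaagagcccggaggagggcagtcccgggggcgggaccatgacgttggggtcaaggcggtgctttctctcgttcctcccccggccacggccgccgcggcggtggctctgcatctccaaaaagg
EGLN1 held 1 match 68 bases before its start site, and EGLN3 held 1 match 229 bases before. EGLN2 held 3 matches in the promoter shown, at 48, 4 and 3 bases before its start site. The last 2 overlap in a CACGTG palindrome, which also fits the E-box of other factors. A second EGLN2 promoter (chr7:27165679-27165978) held 0 matches and is not shown.

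Across the 10 tumors EPAS1 was the most abundant of the 9 transcripts per kilobase, in 10 of 10 libraries. Its median was 91.2 CPM per kilobase, followed by medians of 31.9 for EGLN1, 19.1 for HIF1A, 17.8 for VHL, 14.8 for ARNT, 9.73 for HIF1AN, 5.36 for EGLN2, 4.81 for HIF3A and 2.93 for EGLN3. The order of neighbours was firm for EPAS1 over EGLN1 (10 of 10 libraries), for ARNT over HIF1AN (9 of 10), for HIF1AN over EGLN2 (9 of 10) and for EGLN1 over HIF1A (8 of 10), and VHL was above ARNT in 7 of 10. HIF1A was above VHL in only 6 of 10 libraries and EGLN2 above EGLN3 in 6 of 10, so these neighbours were not separated. HIF3A was above EGLN2 in 8 of 10 libraries although its median was lower. EGLN3 was the lowest of the 9 in 6 libraries, EGLN2 in 3 and HIF3A in 1.

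The genes also differed in how steady they were. HIF1AN was the steadiest, with a 2.19-fold range of CPM over the libraries, and the SD of its log2 CPM stood at the 1.46 percentile of tested genes. ARNT followed in SD, with a 2.9-fold range (8.73 percentile). EGLN3 was at the other end, with a 1300-fold range (95.7 percentile) that starts from a deposited value of only 3 in NLS-2SA-YAP1 replicate 2. EGLN2 spanned 15.9-fold, HIF3A 14.9-fold, HIF1A 7.7-fold, EPAS1 6.22-fold, VHL 3.65-fold and EGLN1 3.44-fold.

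**Figure D1:**
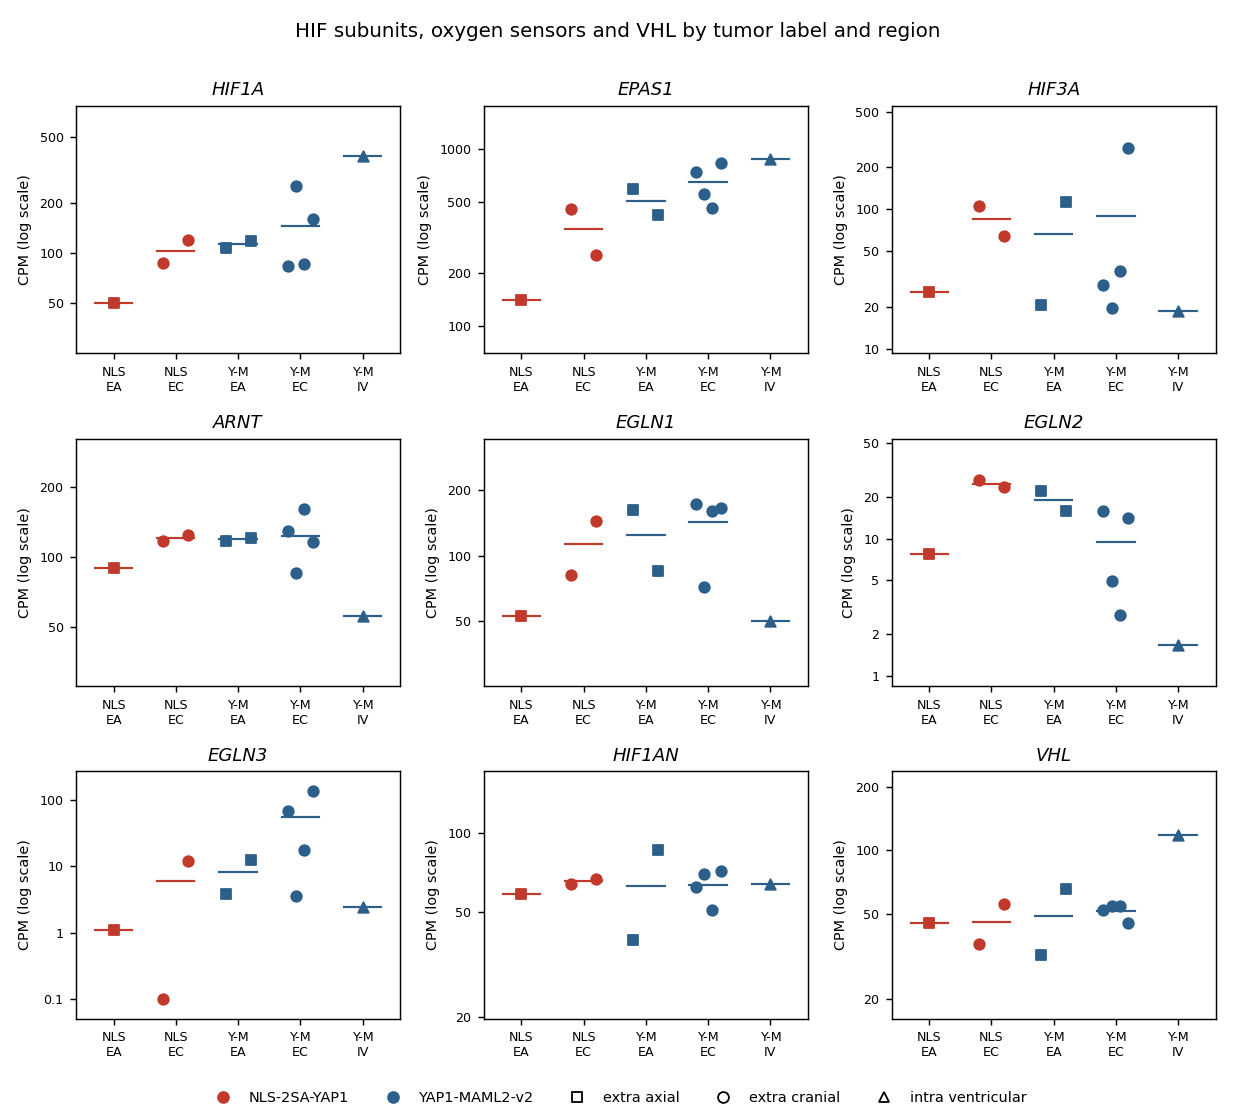
CPM of each of the 9 genes (log axis) in NLS-2SA-YAP1 (NLS, red) and YAP1-MAML2-v2 (Y-M, blue) tumors, by region (EA extra axial, EC extra cranial, IV intra ventricular); each point is 1 library and each bar the mean of its column. HIF1AN keeps within 39.3 to 86 CPM, whereas EGLN3 ranges between 0.102 and 133 CPM, with its 2 highest values in extra cranial YAP1-MAML2-v2 tumors.

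Between constructs, 8 of the 9 genes had a negative log2 fold change (NLS-2SA-YAP1 minus YAP1-MAML2-v2; 7 on library totals without scaling factors), but none passed the test. The number was 6 under either limma fit and lay between 5, without YAP1-MAML2-v2 replicate 6, and 8 with 1 library left out. With a block for replicate number and no region term, 4 were negative and 5 were not. In the main fit the intra ventricular library has its own term and does not enter the fitted differences between constructs. edgeR called 0 of 9 at an adjusted p under 0.05, against 2 of 13707 genes (0.0146%). At an unadjusted p under 0.05 there was 1 of 9, EPAS1, against 13.1% of all genes tested, so the share among the 9 was near the background. DESeq2 also called EPAS1 alone, against 5% of all genes. limma on log2 CPM called 0 of 9 (0.0292% of all genes), and limma-voom with sample quality weights called 0 of 9 (0.693% of all genes). The median log2 fold change was -0.47 over the 9 genes and -0.03 over all genes, of which 51.6% were negative. No gene of the 9 separated the constructs completely, as 6.73% of all genes did.

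**Figure D2:**
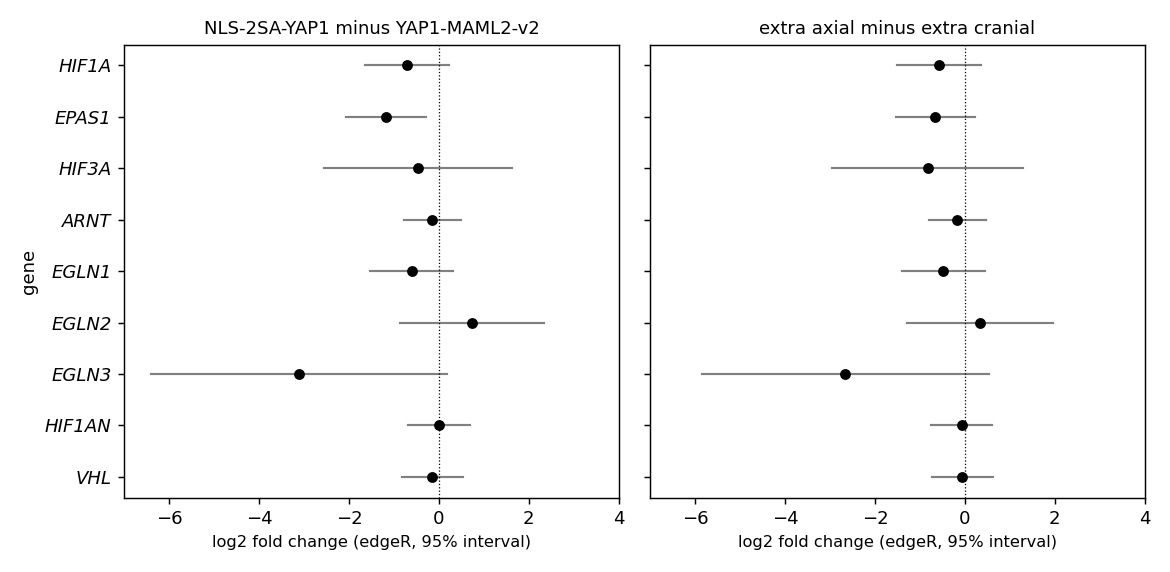
Log2 fold changes of the 9 genes (points) with their 95% intervals (lines) from edgeR, for NLS-2SA-YAP1 minus YAP1-MAML2-v2 (left) and extra axial minus extra cranial (right). The EPAS1 interval between constructs, -2.07 to -0.28, lies below 0, the other intervals span 0, and that of EGLN3 is the widest in both panels.

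Among the alpha subunits, EPAS1 (Epas1, chr17:86753700-86833410, plus strand, mm10) showed the clearest difference. It stood at 140, 456 and 253 CPM in NLS-2SA-YAP1 replicates 1 to 3, against a lowest value of 422, a median of 593 and a highest value of 874 CPM in YAP1-MAML2-v2 tumors. NLS-2SA-YAP1 replicates 1 and 3 lay below every YAP1-MAML2-v2 library, and replicate 2 lay above 1 of them, the extra axial replicate 6. The mean was 283 ± 160 CPM (SD, n = 3) for NLS-2SA-YAP1, against 641 ± 178 CPM (SD, n = 7) for YAP1-MAML2-v2. Between constructs its log2 fold change was -1.17 (SE 0.4), with an edgeR p of 0.0154 before adjustment and 0.288 after it over all genes. With 1 library left out the edgeR value lay between -1.57 and -0.88. DESeq2 gave -1.2 with an adjusted p of 0.0343, and over all settings tried the adjusted p lay between 0.0343 and 0.57. Endothelial markers, 8 of 8 above a deposited value of 1 in every library, summed to 156, 496 and 184 CPM in NLS-2SA-YAP1 replicates 1 to 3 and to between 101 and 642 CPM in YAP1-MAML2-v2 libraries. Within NLS-2SA-YAP1 tumors EPAS1 and these markers were both highest in replicate 2. In YAP1-MAML2-v2 tumors, EPAS1 reached 833 and 745 CPM in replicates 5 and 1, where endothelial markers summed to 102 and 101 CPM, the lowest of all libraries. EPAS1 was highest, at 874 CPM, in the intra ventricular replicate 7, where these markers summed to 590 CPM. In replicate 3 of that group EPAS1 was 554 CPM and these markers summed to 642 CPM, the highest of all libraries. Pericyte markers summed to 297, 733 and 506 CPM in NLS-2SA-YAP1 replicates 1 to 3 and to between 425 and 2030 CPM in YAP1-MAML2-v2 libraries. The part of endothelial and pericyte markers in the EPAS1 difference was not tested.

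HIF1A (Hif1a, chr12:73901375-73947530, plus strand), the alpha subunit found in nearly all cells, stood at 49.7, 86.7 and 119 CPM in NLS-2SA-YAP1 replicates 1 to 3. In YAP1-MAML2-v2 tumors the lowest, median and highest values were 83.1, 118 and 383 CPM. The groups overlapped, and the YAP1-MAML2-v2 range reached higher through 251 CPM in replicate 3 and 383 CPM in the intra ventricular replicate 7. edgeR gave a log2 fold change of -0.71 (SE 0.42; adjusted p = 0.502, 95% interval -1.65 to 0.23). Its exons share 330 bases (5.6%) with the antisense gene Gm15283 and 148 bases (2.51%) with Gm49321 on the same strand. No source used here gives the strand setting of the counting, so reads from these stretches cannot be assigned.

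HIF3A (Hif3a, chr7:17031507-17062427, minus strand) encodes an alpha subunit of which short forms inhibit the others. It was 25.3, 106 and 63.7 CPM in NLS-2SA-YAP1 replicates 1 to 3. Among YAP1-MAML2-v2 tumors the lowest, median and highest were 18.5, 28.6 and 275 CPM. The value of 275 CPM, in extra cranial replicate 5, was followed by 112 CPM in replicate 6, and the other 5 lay between 18.5 and 36 CPM. The fitted log2 difference was -0.47 (SE 0.93; edgeR adjusted p = 0.891) and became 0.78 without YAP1-MAML2-v2 replicate 5.

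Per kilobase, EPAS1 made up 60.5 to 87.9% of the summed alpha-subunit level in each library. Its ratio to HIF1A was 2.98, 5.55 and 2.25 in NLS-2SA-YAP1 replicates 1 to 3 against 2.33 to 9.46 for YAP1-MAML2-v2. HIF3A took 10.1 to 14.1% of the alpha-subunit sum in NLS-2SA-YAP1 tumors. It took 18.9 and 14.9% in YAP1-MAML2-v2 replicates 5 and 6, and 1.23 to 5.2% in the other 5 of that group.

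ARNT (Arnt, chr3:95434388-95497240, plus strand), the dimer partner of every alpha subunit, was 90.2, 118 and 125 CPM in NLS-2SA-YAP1 replicates 1 to 3. In YAP1-MAML2-v2 tumors its lowest, median and highest values were 55.9, 118 and 162 CPM. The group means, 111 ± 18.5 CPM (SD, n = 3) for NLS-2SA-YAP1 and 113 ± 33.7 CPM (SD, n = 7) for YAP1-MAML2-v2, differed by less than either spread. On the log2 scale the difference was -0.15 (SE 0.28; edgeR adjusted p = 0.889), with a 95% interval of -0.78 to 0.49. Summed alpha subunits exceeded ARNT per kilobase by 3.31 to 7.58 times in NLS-2SA-YAP1 tumors and by 5.1 to 15 times in YAP1-MAML2-v2 replicates 1 to 6. In the intra ventricular YAP1-MAML2-v2 library that ratio was 32.1. These ratios count ARNT alone and leave out ARNT2, another HIF dimer partner, so they do not compare alpha subunits with all partners. In the intra ventricular library ARNT2 stood at 1010 CPM, against 55.9 CPM for ARNT. ARNT2 also had more CPM than ARNT in NLS-2SA-YAP1 replicate 1 and YAP1-MAML2-v2 replicates 1, 2, 3 and 6. It had less in NLS-2SA-YAP1 replicates 2 and 3 and YAP1-MAML2-v2 replicates 4 and 5.

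**Figure D3:**
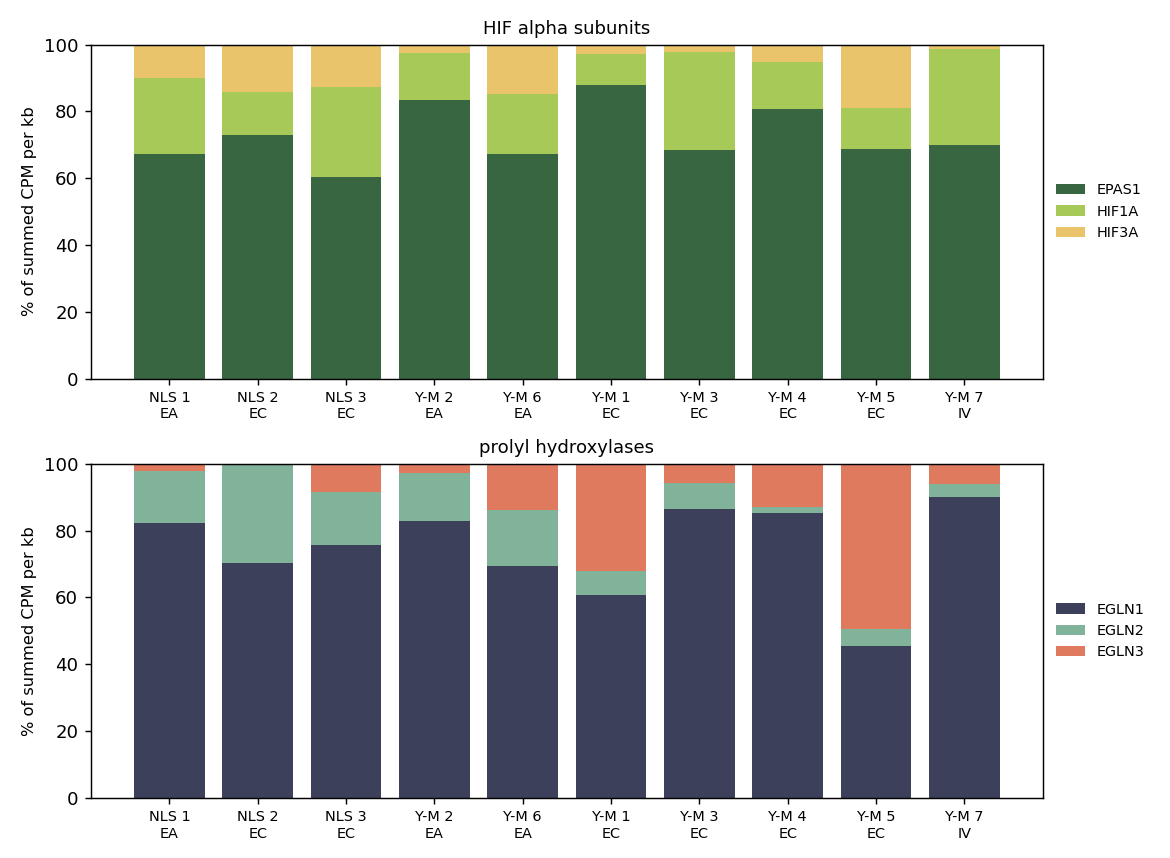
Share of each HIF alpha subunit (top) and each prolyl hydroxylase (bottom) in the summed CPM per kilobase of its class, 1 bar per library, with NLS-2SA-YAP1 (NLS) left of YAP1-MAML2-v2 (Y-M) tumors. EPAS1 holds at least 60.5% of its class in every library, and EGLN3 takes 49.6 and 32.1% of its class in YAP1-MAML2-v2 replicates 5 and 1.

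Among the prolyl hydroxylases, EGLN1 (Egln1, chr8:124908587-124949324, minus strand), also called PHD2 and the main oxygen sensor in most cells, was the most abundant per kilobase in 9 of 10 libraries. It was 52.9, 81.4 and 144 CPM in NLS-2SA-YAP1 replicates 1 to 3, and its lowest, median and highest values in YAP1-MAML2-v2 tumors were 50.2, 160 and 173 CPM. In that group 4 libraries lay between 160 and 173 CPM and 3 between 50.2 and 85.1 CPM, so the NLS-2SA-YAP1 values fell within its range. edgeR gave a log2 fold change of -0.61 (SE 0.41; adjusted p = 0.569), and -0.99 to -0.34 with 1 library left out.

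EGLN2 (Egln2, chr7:27158658-27166802, minus strand), also called PHD1, was the only gene of the 9 with a positive log2 fold change between constructs. It was 7.75, 26.8 and 23.6 CPM in NLS-2SA-YAP1 replicates 1 to 3, and its lowest, median and highest values in YAP1-MAML2-v2 tumors were 1.68, 14.2 and 22.3 CPM. The groups overlapped, with NLS-2SA-YAP1 replicates 2 and 3 above all 7 YAP1-MAML2-v2 libraries and replicate 1 above 3 of them. The fitted log2 difference was 0.73 (SE 0.72; edgeR adjusted p = 0.721). It became 1.4 when NLS-2SA-YAP1 replicate 1 was dropped and 0.4 when replicate 2 of that group was. EGLN2 shares 11 exon bases (0.393%) with Cyp2t4 on the opposite strand.

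EGLN3 (Egln3, chr12:54178981-54203860, minus strand), also called PHD3 and known to be strongly induced by HIF, had the largest but least precise difference. It was 1.08, 0.102 and 11.8 CPM in NLS-2SA-YAP1 replicates 1 to 3. In YAP1-MAML2-v2 tumors it was 133, 67.7 and 17.7 CPM in extra cranial replicates 5, 1 and 4 and 3.57 CPM in extra cranial replicate 3. It was 12.5 and 3.83 CPM in extra axial replicates 6 and 2, and 2.46 CPM in the intra ventricular replicate 7. Replicates 1 and 2 of NLS-2SA-YAP1 lay below every YAP1-MAML2-v2 library, and replicate 3 lay above 3 of them. Between constructs EGLN3 had a log2 fold change of -3.12 (SE 1.45; edgeR adjusted p = 0.403). Leaving out NLS-2SA-YAP1 replicate 3 gave -4.77 (edgeR adjusted p = 0.516). Dropping NLS-2SA-YAP1 replicate 2 gave -2.52 (edgeR adjusted p = 0.679), as did dropping YAP1-MAML2-v2 replicate 5 (edgeR adjusted p = 0.516). DESeq2 on all 10 libraries gave -3.15 with an adjusted p of 0.0554.

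The makeup of the hydroxylase class varied in both EGLN2 and EGLN3. EGLN2 held 15.5, 29.6 and 15.9% of the class per kilobase in NLS-2SA-YAP1 replicates 1 to 3. In YAP1-MAML2-v2 tumors EGLN2 held 1.91 to 16.7%. Per kilobase EGLN3 held 2.26, 0.119 and 8.33% of the class in NLS-2SA-YAP1 replicates 1 to 3. In YAP1-MAML2-v2 tumors it held 49.6% in replicate 5, where it exceeded EGLN1 at 45.4%, 32.1% in replicate 1 and 2.63 to 13.8% in the other 5.

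HIF1AN and VHL, which act on the alpha subunit or on its hydroxylated form, had fitted differences near 0 between constructs. HIF1AN (Hif1an, chr19:44562850-44576274, plus strand) averaged 63.2 ± 4.36 CPM (SD, n = 3) for NLS-2SA-YAP1, against 63.5 ± 15.1 CPM (SD, n = 7) for YAP1-MAML2-v2. On the log2 scale the difference was -0.01 (SE 0.31; edgeR adjusted p = 0.996), with a 95% interval of -0.69 to 0.68, and its sign flips with the scaling. VHL (Vhl, chr6:113623959-113631633, plus strand), the substrate receptor of the ligase, was 45.5, 36.3 and 55.7 CPM in NLS-2SA-YAP1 replicates 1 to 3. It was 32.2 to 65.8 CPM in YAP1-MAML2-v2 replicates 1 to 6 and 118 CPM in replicate 7. edgeR gave a log2 fold change of -0.15 (SE 0.31; adjusted p = 0.896).

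By region, 8 of the 9 genes again had a negative log2 fold change (extra axial minus extra cranial; 6 on library totals without scaling factors), and none passed. edgeR called 0 of 9, as it called 0% of the 13707 genes, and at an unadjusted p under 0.05 it was 0 of 9 against 3.01% of all genes. DESeq2 called 0 of 9 (0.226% of all genes), and both limma fits called 0 of 9 (0% of all genes). No gene of the 9 separated the regions, as 0.89% of all genes did. The median log2 fold change was -0.48 over the 9 genes and -0.01 over all genes. Both comparisons rest on the same libraries, and the only extra axial NLS-2SA-YAP1 library had the lowest HIF1A and EPAS1 of all 10, so the 2 sets of signs are not independent.

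EGLN3 again had the widest difference by region, with means of 5.81 ± 5.98 CPM (SD, n = 3) in extra axial and 39 ± 52.2 CPM (SD, n = 6) in extra cranial tumors. The fit gave a log2 fold change of -2.66 (SE 1.41; edgeR adjusted p = 1). It became -3.15 when YAP1-MAML2-v2 replicate 6 was dropped and -1.62 when NLS-2SA-YAP1 replicate 3 was, and it was -0.84 (SE 7.23) under the replicate block. The extra axial values lay between 1.08 and 12.5 CPM and inside the extra cranial range of 0.102 to 133 CPM. EPAS1 averaged 385 ± 228 CPM (SD, n = 3) in extra axial and 551 ± 211 CPM (SD, n = 6) in extra cranial tumors, a log2 fold change of -0.66 (SE 0.39; edgeR adjusted p = 1). HIF1A averaged 91.6 ± 36.7 CPM (SD, n = 3) in extra axial and 131 ± 65.9 CPM (SD, n = 6) in extra cranial tumors, a log2 fold change of -0.58 (SE 0.42). EGLN1 had -0.48 (SE 0.41), and HIF3A had -0.82 (SE 0.94), which became 0.43 without YAP1-MAML2-v2 replicate 5. EGLN2 had 0.34 (SE 0.72), and ARNT, HIF1AN and VHL lay between -0.17 and -0.06.

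Whether the construct difference itself differed between regions was tested in the 9 extra axial and extra cranial libraries. edgeR called 0 of 9 genes for this interaction, against 0.00741% of 13487 genes, and at an unadjusted p under 0.05 it was 0 of 9 against 7.14%. Adjusted p-values lay between 0.733, for EGLN2 with an interaction of -2.71 (SE 1.32), and 0.992. A single NLS-2SA-YAP1 library is extra axial, so this test rests on that library.

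The intra ventricular library has no replicate and was described without a test. It lay outside the range of the other 9 libraries for 7 of the 9 genes, and for 37.6% of all 13707 genes. HIF1A was at 383 CPM there against a median of 107 CPM in the others, EPAS1 at 874 against 466 CPM and VHL at 118 against 52.1 CPM, and all 3 were the highest values of the series. ARNT was at 55.9 against 118 CPM, EGLN1 at 50.2 against 144 CPM, HIF3A at 18.5 against 36 CPM and EGLN2 at 1.68 against 15.9 CPM, all the lowest of the series. EGLN3, at 2.46 CPM, and HIF1AN, at 64.3 CPM, lay within the range. This is also the library with the highest astrocyte markers and the highest macrophage markers, which summed to 2110 CPM against 302 to 1260 CPM in the others. Endothelial markers had their highest mean log2 CPM there, 5.76 against 3.05 to 5.66, and summed to 590 CPM against 101 to 642 CPM. Neuron markers also had their highest mean log2 CPM there, 6.36 against 2.19 to 5.94, but summed to 378 CPM against 378 to 1070 CPM. The part of these cell types in the levels above was not tested. ARNT2, the paralog of ARNT that is known from neural tissue, stood at 1010 CPM in the intra ventricular library against 50.6 to 376 CPM in the other 9.

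HIF target genes, a list of 23 genes known to be transcribed in response to HIF, gave the same direction as EGLN3. The list was chosen with earlier results of these data known, so its shares below are description and not independent evidence. Between constructs 21 of 23 had a negative log2 fold change and 2 a positive one, with a median of -1.12 against -0.03 over all genes. With 1 library left out, 18 to 22 of 23 were negative and the median lay between -1.65 and -0.83, and on library totals without scaling factors 21 were negative. Pericyte markers had negative log2 fold changes between constructs as well, in 5 of 5 genes with a median of -1.42, and so did macrophage markers, in 6 of 6 tested with a median of -0.32. Astrocyte markers were negative in 3 of 4 genes (median -1.09) and neuron markers in 2 of 2 tested (median -3.05). None of these markers had an unadjusted edgeR p under 0.05. Skeletal muscle markers were positive in 5 of 5 tested, meningeal and arachnoid markers in 6 of 8 and endothelial markers in 5 of 8. Pericyte markers, 5 of 5 above a deposited value of 1 in every library, summed to 297 to 733 CPM for NLS-2SA-YAP1, against 425 to 2030 CPM for YAP1-MAML2-v2. The part of pericyte, macrophage and other markers in the HIF target differences was not tested. edgeR called 0 of 23, and 10 of 23 (43.5%), all lower in NLS-2SA-YAP1 tumors, had an unadjusted p under 0.05, against 13.1% of all genes. DESeq2 called 7 of 23, all lower in NLS-2SA-YAP1 tumors, against 5% of all genes. Both limma fits called 0, against 0.0292% of all genes on log2 CPM and 0.693% with limma-voom. The smallest p-values were those of ADM, which encodes the vasodilator adrenomedullin, and PDK1, a kinase that restrains pyruvate entry into mitochondria. ADM was 1.08, 21.3 and 12.8 CPM in NLS-2SA-YAP1 replicates 1 to 3 against 6.56 to 115 CPM for YAP1-MAML2-v2, and the groups overlapped (log2 fold change -2.63, SE 0.59, edgeR adjusted p = 0.161). PDK1 was 6.1, 4.89 and 20.9 CPM in NLS-2SA-YAP1 replicates 1 to 3 against 22 to 65.9 CPM for YAP1-MAML2-v2, without overlap, as in 6.73% of all genes (log2 fold change -1.91, SE 0.51, edgeR adjusted p = 0.221). By region 19 of 23 were lower in extra axial tumors and 4 higher, with a median of -0.87 against -0.01 over all genes. With 1 library left out, 19 to 21 were lower, and 19 were on library totals without scaling factors. There edgeR called 0 of 23, and 5 of 23 (21.7%) had an unadjusted p under 0.05, 4 of them lower, against 3.01% of all genes. ADM (-2.71, SE 0.59) and DDIT4 (-2.12, SE 0.62), which encodes an inhibitor of mTORC1 signaling, came first. DESeq2 called 1 of 23, ADM, against 0.226% of all genes, and both limma fits called 0 (0% of all genes). By region 5 of 5 tested skeletal muscle, 4 of 4 astrocyte, 2 of 2 tested neuron and 5 of 6 tested macrophage markers were also lower. Their medians were -3.54, -0.88, -3.82 and -0.48. Endothelial markers were lower in 5 of 8, meningeal and arachnoid markers in 4 of 8 and pericyte markers in 2 of 5. The part of these markers in the region differences was not tested. CA9 and CA12 are listed at 1 in NLS-2SA-YAP1 replicates 2 and 3, so no fold is read from them. Between constructs both are among the 10 genes and among the 7 that DESeq2 called.

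Library by library, EGLN3 had the highest correlation with the target genes among the 9. The correlation of its log2 CPM with the mean log2 CPM of the 23 targets was r = 0.92 (Spearman rho 0.93) over 10 libraries. It was 0.84 without the 2 libraries farthest out, NLS-2SA-YAP1 replicate 2 and YAP1-MAML2-v2 replicate 5, and 0.86 within the 7 YAP1-MAML2-v2 libraries. EGLN1 came next, with r = 0.68 (rho 0.7), 0.69 without the same 2 libraries and 0.69 within YAP1-MAML2-v2. The other 7 genes had r between -0.08 and 0.46. Among them ARNT had 0.42, but 0.64 without the same 2 libraries and 0.64 within YAP1-MAML2-v2, near the values of EGLN1. Without the intra ventricular library ARNT had 0.33. HIF3A had 0.21, and 0.53 within YAP1-MAML2-v2. EPAS1 had r = 0.46 over 10 libraries but 0.04 within YAP1-MAML2-v2 tumors, and HIF1A had 0.14 and -0.48. Without the intra ventricular library r was 0.64 for EPAS1, close to 0.65 for EGLN1, 0.48 for HIF1A and 0.93 for EGLN3. These are descriptions over libraries that differ in construct and region, and all points of a library share its scaling.

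**Figure D4:**
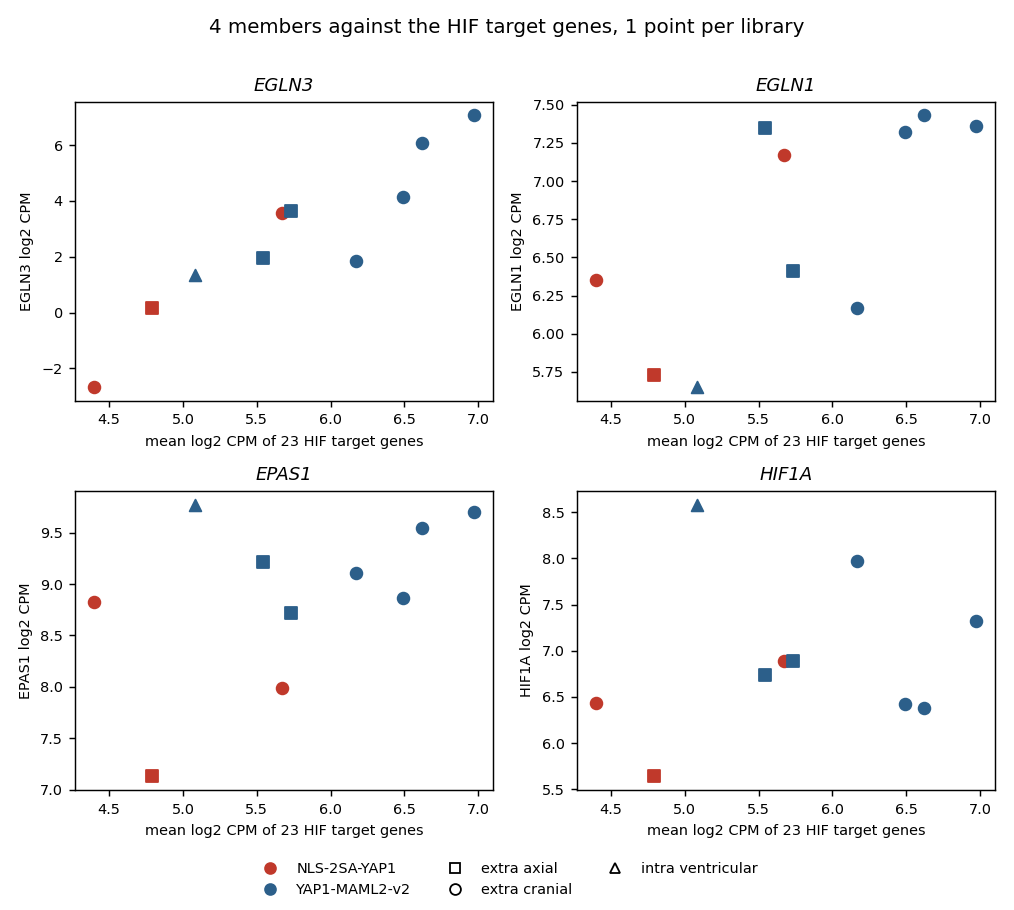
Log2 CPM of EGLN3, EGLN1, EPAS1 and HIF1A (vertical axes) against the mean log2 CPM of 23 HIF target genes (horizontal axes), 1 point per library, coloured by construct and shaped by region. EGLN3 climbs with the target mean (r = 0.92), whereas HIF1A (r = 0.14) and EPAS1 (r = 0.46) reach their highest values in the intra ventricular library, where the target mean is 5.08. Without that library r is 0.48 for HIF1A and 0.64 for EPAS1.

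Gene by gene, all 23 targets correlated positively with EGLN3, with a median r of 0.54 against -0.01 over 13706 genes. An r over 0.7 was found for 10 of the 23, against 3.22% of all genes. The closest were BNIP3 (0.9), a mitophagy receptor, PGK1 (0.85), a glycolytic enzyme, VEGFA (0.85), the main angiogenic growth factor, ANKRD37 (0.85) and the histone demethylase gene KDM3A (0.85). PFKFB4 (0.01), INSIG2 (0.11) and NDRG1 (0.13) did not follow it. EGLN1 had 10 targets over 0.7 as well, against 4.28% of all genes. Its median r was 0.6 against -0.01 over all genes, with LDHA closest at 0.9 and PFKFB4 lowest at -0.51. ARNT had 4 targets over 0.7, against 6.31% of all genes, and a median r of 0.49 against 0.02 over all genes. These targets were singled out after their values were seen.

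VEGFA shows the pattern in CPM. It was 73.2, 23.1 and 140 CPM in NLS-2SA-YAP1 replicates 1 to 3, and in YAP1-MAML2-v2 tumors it was 467, 430 and 334 CPM in replicates 5, 1 and 4, the 3 libraries with the highest EGLN3. In the other YAP1-MAML2-v2 libraries it was 23.8 to 134 CPM. The groups overlapped, and its log2 fold change between constructs was -1.38 (SE 0.7; edgeR adjusted p = 0.437).

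Over all genes whose deposited values were above 1 in every library (11875), those with a pattern most like EGLN3 were SRGN (r = 0.97), ALDOA (0.95) and FCGR2B (0.95) over 10 libraries. SRGN encodes a proteoglycan of blood-cell granules, ALDOA a glycolytic aldolase and FCGR2B an Fc receptor of B and myeloid cells. Macrophage markers, 7 of 8 in the files, summed to 473 to 707 CPM for NLS-2SA-YAP1, against 302 to 2110 CPM for YAP1-MAML2-v2. They were 1260 and 825 CPM in YAP1-MAML2-v2 replicates 5 and 1, where EGLN3 was highest, but 2110 CPM in replicate 7, where EGLN3 was 2.46 CPM, and their part in EGLN3 was not tested. HIF1A was most like KCTD12 (0.97), CCDC80 (0.96) and AKAP11 (0.95). EPAS1 was most like ATP6V1A (0.93), RHOQ (0.92) and PURA (0.92).

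Among the 9 genes themselves, ARNT and EGLN1 had the highest correlation, r = 0.79 over 10 libraries and 0.74 without the intra ventricular one. EGLN1 and EGLN3 had r = 0.67 with a rho of 0.82, and 0.69 without that library. HIF1A and EPAS1 had r = 0.63, and 0.55 without it. HIF1A and VHL had 0.65, and 0.23 without the intra ventricular library, and EGLN2 and VHL had -0.7, against -0.39 without it. The last 2 pairs thus rest largely on that library.

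Of the 4 lists of partners of the 9 genes, edgeR called 0 genes in either comparison. Over all genes it called 0.0146% between constructs and 0% by region. Between constructs, 1 of 4 ligase partners (25%) and 1 of 7 cofactors (14.3%) had an unadjusted edgeR p under 0.05. So did 2 of 7 stability regulators (28.6%) and 1 of 7 dioxygenases (14.3%), against 13.1% of all genes. DESeq2 called CITED2 and KDM6B there (5% of all genes), and limma-voom called KDM6B (0.693% of all genes). The fit of limma on log2 CPM called 0 (0.0292% of all genes). Of 4 VHL ligase partners, 2 had a positive log2 fold change in NLS-2SA-YAP1 tumors and 2 a negative one. TCEB2, or elongin B, had a log2 fold change of 1.05 (SE 0.4; edgeR adjusted p = 0.319) and CUL2, the scaffold, -0.96 (SE 0.44; edgeR adjusted p = 0.392). Of 7 dimer partners and cofactors, 6 were lower in NLS-2SA-YAP1 tumors, with a median of -0.72.

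CITED2, which competes with HIF1-alpha for its coactivators and is itself HIF-induced, was 14, 39.6 and 48.1 CPM in NLS-2SA-YAP1 replicates 1 to 3. It was 65.8 CPM at the lowest, 154 CPM at the median and 257 CPM at the highest in YAP1-MAML2-v2 tumors. The groups did not overlap, as they did not in 6.73% of all genes, and edgeR gave a log2 fold change of -2.36 (SE 0.53; adjusted p = 0.161). The coactivator gene EP300 had -0.85 (SE 0.39; edgeR adjusted p = 0.391).

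Of 7 other regulators of alpha-subunit stability, 3 had a positive and 4 a negative log2 fold change between constructs. SIAH1, a ubiquitin ligase known to act on prolyl hydroxylases, had -1.37 (SE 0.46) and the chaperone HSP90AA1 had 1.1 (SE 0.43), and edgeR's adjusted p was 0.28 for SIAH1 and 0.325 for HSP90AA1. Of 7 other oxygen-dependent dioxygenases, 4 were higher and 3 lower. The histone demethylase gene KDM6B was 17, 22.3 and 27.4 CPM in NLS-2SA-YAP1 replicates 1 to 3 against 25.5 to 114 CPM for YAP1-MAML2-v2, with only replicate 7 inside the NLS-2SA-YAP1 range (-1.77, SE 0.34, edgeR adjusted p = 0.143). KDM5A had -0.58 (SE 0.29; edgeR adjusted p = 0.428).

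By region the same 4 lists had 3 of 4, 2 of 7, 2 of 7 and 2 of 7 genes higher in extra axial tumors, with medians of 0.08, -0.08, -0.28 and -0.27. The smallest p-values were those of RBX1 (0.58, SE 0.44) and TCEB2 (0.12, SE 0.41), then CITED2 (-0.87, SE 0.49) and ARNT2 (0.63, SE 0.57). SIAH2 (-0.41, SE 0.4) and OS9 (-0.28, SE 0.28), and OGFOD1 (-0.39, SE 0.32) and KDM6B (-0.32, SE 0.32), had the smallest in the other 2 lists. None had an unadjusted edgeR p under 0.05, against 3.01% of all genes. DESeq2 (0.226% of all genes) and both limma fits (0% of all genes) called 0.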

How the data were processed

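RNA-seq values of 10 mouse tumors were analysed. The submitters' processing notes name HTSeq and mm10. Not given in the sources used here were versions, aligner, annotation, strand setting and later steps. The deposited files hold whole numbers for human-style symbols, of which 15475 of 16895 (91.6%) match a mouse symbol of the GENCODE mm10 annotation. They were treated as deposited estimated counts and not as raw counts, since a value of 1 was 4.54 to 6.82 times as frequent as a value of 2. They are whole, so no rounding was needed. Totals are therefore not sequencing depth, and no counting intervals are given. The design had assumed raw counts, and its count test was kept.

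Genes were kept with filterByExpr (minimum count 10), scaled by TMM and fitted with edgeR 4.0.16 in R 4.3.3 (quasi-likelihood test, robust), with terms for construct and region. P-values were adjusted by Benjamini-Hochberg over every gene tested, at a threshold of 0.05. A term of its own absorbs the intra ventricular library. Intervals are 95% intervals from the fit. Log2 CPM used a prior count of 2. Exon lengths are unions of annotated exons, and shared exon bases come from the same annotation. Alternatives used DESeq2 1.42.0 and limma 3.58.1. The steps were tested on simulated counts.

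The 9 genes and the lists of pathway genes and markers were chosen with earlier results of these data known. Named genes are the 9, the 2 genes of smallest p of each pathway list in each comparison, and the 3 genes with the highest correlation for HIF1A, EPAS1 and EGLN3. Other targets and VEGFA were chosen after their values were seen. The counts of HIF targets under other scalings and with 1 library left out were added after seeing the data. No 2 libraries were duplicates: the highest correlation of log2 CPM between 2 libraries was 0.915, with 2.92% of tested genes at equal values. Correlations are given without p-values.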

Additional observations from a re-analysis of the deposited data

Results flagged for a closer look

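In 18 sets of 4 to 10 libraries, 3 held a value far from the rest by Dixon's test at the 95% level, where chance gives 0.9. HIF3A stood at 275 CPM in YAP1-MAML2-v2 replicate 5, with 112 CPM as the nearest value among the 7 YAP1-MAML2-v2 libraries and 106 CPM among the 6 extra cranial libraries. These sets share libraries and this value, so the 3 flags are not independent and cannot be weighed against 0.9. VHL stood at 118 CPM in YAP1-MAML2-v2 replicate 7, the intra ventricular library, with 65.8 CPM as the nearest value in that group.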

How the results depend on the processing

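Over 378 results of single genes under the alternatives, 347 kept their direction and side of the threshold, 30 turned their sign and 1 passed the threshold. Between constructs the genes called were 4 with no filter, 685 with DESeq2, 4 with limma on log2 CPM, 95 with limma-voom, 1 without genes that jump between a value of at most 1 and one above 100, 4 in extra cranial libraries only and 0 to 2 with 1 library left out. DESeq2 called 1 of the 9 genes, EPAS1. By region DESeq2 called 31 genes, and 0 to 1 were called with 1 library left out. The interaction gave 4 with limma.

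HIF1AN between constructs turned to 0.06 on library totals without scaling, 0.04 with limma on log2 CPM, 0.01 with limma-voom, 0.01 without the genes that jump, 0.03 in extra cranial libraries only and -0.11 to 0.18 with 1 library left out. HIF3A was 0.19 with limma on log2 CPM, 0.54 with limma-voom and -0.86 to 0.78 with 1 library left out, and VHL was -0.32 to 0.03. By region HIF1AN was 0.08 and VHL 0.1 on library totals, which also moved the median of all genes to 0.14. With 1 library left out they were -0.43 to 0.16 and -0.35 to 0.17, HIF3A was -1.94 to 0.43 and EGLN2 -0.15 to 1. With limma-voom VHL was 0.01 and EGLN2 -0.2. The cause was not tested.

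Same-numbered libraries of the 2 constructs had correlations of 0.17, 0.34 and -0.07 between their deviations from group means. Differently numbered libraries had -0.16 to 0.13. So few pairs cannot show whether the numbers pair the libraries. A fit with the replicate block called 2 genes between constructs. Under the block HIF1AN was 0.18, HIF3A 1.32, ARNT 0 and VHL 0 between constructs, and EGLN2 was -0.65 by region. These signs, near 0 in 3 genes, carry no direction. EGLN3 rests on deposited values of 3 to 4037, so its low values limit the precision of its fold.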
